A study of Homo sapiens with 6 samples.

Results

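The replication-dependent histone genes are the intronless, clustered genes that supply the core histones H2A, H2B, H3 and H4 and the linker histone H1 during DNA replication. They were taken as every gene of the deposited count table whose symbol begins with H1-1 to H1-6, H2AC, H2BC, H3C or H4C, the last 4 each followed by a number, which gave 69 of 61228 genes. By class these were 6 H1, 17 H2A, 18 H2B, 13 H3 and 15 H4 genes. The rule reads gene symbols and no counts.

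Most messenger RNAs end in a poly(A) tail, but replication-dependent histone mRNAs end in a conserved stem-loop that the stem-loop binding protein, SLBP, recognises and behind which the transcript is cut, guided by U7 snRNA. Transcription of these genes is coordinated by NPAT, a substrate of cyclin E and CDK2, and their mRNAs accumulate in S phase and are degraded when DNA synthesis stops. Some members can also be made as polyadenylated mRNAs from a downstream poly(A) site, as in cells that have left the cell cycle, and a library made by poly(A) selection therefore captures the family only in part.

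The libraries came from MDA-MB-231, a human breast cancer cell line of the basal, triple-negative type, grown in 3D droplets of collagen I and released with collagenase. Cells of the knockout group (KO, 3 libraries) had been nucleofected with Cas9 and guide RNAs against ETV1, ETV4 and ETV5, which encode related ETS transcription factors. Their treatment label names all 3 genes and their titles name ETV4 alone. Control cells (3 libraries) had received Cas9 with control guides in the same way, so both groups carry Cas9 delivery and collagen culture. All 3 KO library names contain c39, a tag left unexplained, and it is not stated whether the KO cells were 1 clone. The protocol allows more than 1 collagen concentration without assigning them to samples. Nothing says that replicates were separate cultures, so p-values reflect variation among these libraries alone, and that variation may be technical.

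Library totals ran from 18042601 to 23232770 counts. A count of 0 allows up to 3 counts, worth between 0.128 and 0.165 CPM, the unit used throughout for counts scaled to library size, and such limits cover counting error alone. ETV1 averaged 142 ± 11.1 CPM in KO libraries and 223 ± 13.5 CPM in control libraries (SD, n = 3 each), and ETV4 63.7 ± 2.03 CPM in KO and 93.9 ± 2.11 CPM in control, while ETV5 averaged 113 ± 1.23 CPM in KO and 112 ± 4.77 CPM in control. Read counts over a gene do not show whether its protein is lost, so this checks the labels only in part. The markers of the line, VIM, CD44, EGFR, KRT18 and AXL, all averaged at least 289 CPM in both groups. Among luminal genes, ESR1 and PGR were under 1 CPM in both groups, while GATA3 averaged 12.1 CPM in KO and 9.42 CPM in control and FOXA1 2.38 CPM in KO and 1.57 CPM in control. The 10 markers of fibroblasts, leukocytes and endothelium summed to 15.9 to 18 CPM in KO libraries and 20.1 to 21.6 CPM in control libraries, and 7 of them averaged under 1 CPM in both groups. Of the other 3, the endothelial marker PECAM1 was lower in KO cells, at 3.32, 4.83 and 3.08 CPM, against 7.09, 7.16 and 6.04 CPM in control (−0.85 on the log2 scale, SE 0.19, with an edgeR adjusted p of 0.0250). The pericyte and fibroblast marker PDGFRB was at 2.41, 2.65 and 2.09 CPM in KO and 3.64, 3.56 and 3.53 CPM in control (−0.58). Its edgeR adjusted p was 0.0676, and 0.0192 with the replicate number as a block. COL1A1 overlapped between the groups. The part of these markers in the results was not tested.

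The stem-loop is the sequence that sets these mRNAs apart, and 4 versions of it from genes with enough counts to be tested are shown, read from the GENCODE release 29 transcript of each gene (GRCh38). The capitals mark the stem-loop, written as DNA in the direction of the transcript.
H2AC6: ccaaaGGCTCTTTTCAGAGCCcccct
H2BC5: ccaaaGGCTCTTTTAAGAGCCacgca
H2AC11: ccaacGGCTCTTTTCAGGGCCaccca
H4C8: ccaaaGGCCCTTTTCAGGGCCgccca
The pattern that all of these fit, GG, any 3 bases, TT, any base, T, any base, A, any 3 bases and CC, searched on the transcript strand within 500 bases after the last codon, was present in 31 of the 69 members. In 34 members the annotated transcript ends at the stop codon, so that the search had nothing to read. Among 19775 other protein-coding genes, 0.622% held the pattern. The version shown for H2AC6 was also the most frequent, in 17 members, and the version shown for H4C8 occurred in 5 members, all of them H4 genes.

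The promoters are shown for the best counted member of each class, as the 150 bases before the RefSeq start of the gene (GRCh38.p14), where factors that control these genes bind. For H4 the window is that of H4C8, because no window of H4C3, which had slightly more reads, was used. Capitals mark matches, on either strand, to the octamer ATTTGCAT bound by OCT1, the CCAAT box, the TATA box TATAAA, and the H1 box AAACACA that is particular to linker histone promoters.
H1-2, chr6:26056471-26056620, minus strand: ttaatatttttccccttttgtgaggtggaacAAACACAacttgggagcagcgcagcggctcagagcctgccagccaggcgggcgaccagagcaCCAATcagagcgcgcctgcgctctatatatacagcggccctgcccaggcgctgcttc
H2AC6, chr6:26124022-26124171, plus strand: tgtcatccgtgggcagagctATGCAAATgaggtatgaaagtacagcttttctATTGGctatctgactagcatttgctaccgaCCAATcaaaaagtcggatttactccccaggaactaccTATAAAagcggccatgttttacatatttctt
H2BC12, chr6:27146859-27147008, minus strand: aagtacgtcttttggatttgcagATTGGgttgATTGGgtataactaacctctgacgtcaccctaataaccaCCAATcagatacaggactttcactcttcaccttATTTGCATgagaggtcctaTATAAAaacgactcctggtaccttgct
H3C3, chr6:26045234-26045383, plus strand: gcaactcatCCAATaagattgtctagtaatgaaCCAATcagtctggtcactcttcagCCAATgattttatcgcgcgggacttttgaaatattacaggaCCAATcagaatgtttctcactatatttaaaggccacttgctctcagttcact
H4C8, chr6:26285535-26285684, minus strand: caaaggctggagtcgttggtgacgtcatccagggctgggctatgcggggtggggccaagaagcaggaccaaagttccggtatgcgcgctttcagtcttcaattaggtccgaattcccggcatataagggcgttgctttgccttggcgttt
In H2BC12 the octamer begins 46 bases and the TATA box 27 bases before the start. In H2AC6 the octamer lies on the other strand, 130 bases before the start, and the TATA box 31 bases before it. The 4 CCAAT boxes of H3C3 begin 141, 117, 93 and 52 bases before the start. The H4C8 window held none of these motifs.

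Over the RefSeq windows from 250 bases before to 50 bases after each start, which were found for 64 of the 69 members, the motifs followed histone class. The octamer was present in 11 of 16 H2A and 14 of 18 H2B windows and in 1 of 11 H3 windows, and in 0 of the 6 H1 and 0 of the 13 H4 windows, against 1.8% of all 27305 promoters. H2A and H2B genes often lie head to head, so their windows overlap and a single octamer can be counted for both. The CCAAT box was in every H1, H2A, H2B and H3 window and in 3 of 13 H4 windows (35.7% of all promoters), and TATAAA was in 42 of the 64 windows (12%). The H1 box was in 6 of 6 H1 windows and in 3 others (5.76% of all promoters). The ETS motif CCGGAAG was in 4 of 64 windows, 1 of H1 and 3 of H4 genes, or 6.25%, against 10.7% of all promoters. The shorter motif AGGAAG was in 12 of 64, or 18.8%, against 33.7% of all promoters. The motifs can overlap, as a window with CCGGAAG may also hold other ETS-like words, and a match describes letters and not binding.

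Of the 69 members, 42 had at least 1 read in at least 1 library, or 60.9%, and 27 had 0 reads in all 6 libraries. In single libraries, 35, 39 and 33 members had a read in KO replicates 1, 2 and 3, and 34, 34 and 32 in control replicates 1, 2 and 3, so the number detected overlapped between the groups. Over all 6 libraries, 30 members had at least 10 reads, 14 at least 100 and 4 at least 1000. The members took 0.0187%, 0.0201% and 0.019% of all counts in KO libraries, against 0.0117%, 0.0117% and 0.0113% in control libraries. Their 18145 reads stood beside 311759 reads of 12 replication-independent histone variant genes, and made up 5.5% of both together. The mRNAs of these variants carry poly(A) tails, though that of H2AX can also end in a stem-loop.

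Reads were concentrated on few members, without correction for length. H1-2, a somatic linker histone, held 37.1% of all members' reads. With H2BC12, which encodes an H2B, the share was 65.6%, and with H2AC6, which encodes an H2A, it was 80.9%. H1-2 held 98.2% of the H1 reads, H2AC6 87.2% of the H2A reads and H2BC12 70.2% of the H2B reads. The H3 and H4 genes were barely present, with 391 and 338 reads in all, and there the leading genes, H3C3 and H4C3, held 40.2% and 41.1%. H2A had 12 of 17 members with a read, H2B 13 of 18, H1 3 of 6, H3 6 of 13 and H4 8 of 15.

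The members at 0 lay together. On chromosome 6, 15 neighbouring members from H4C4 to H2BC10 (chr6:26188765-26273356, GRCh38, 84592 bp) had no read in any library. They comprised 1 H1, 2 H2A, 4 H2B, 4 H3 and 4 H4 genes, and the 6 other genes counted within the interval held 1 read in all. The members on either side, H2BC6 and H4C8, had 103 and 135 reads. A second run of 4 genes, H2AC16, H1-5, H3C11 and H4C13 (chr6:27865355-27873510), was also at 0. Loss of reads to near-identical copies could be looked at through the share of 50-base words in a gene's transcript that occur in no other annotated transcript of GENCODE release 29. At least 90% of words were unique in 13 of the 15 genes of the long run and in all 4 of the short one, whereas H4C14, H3C14, H3C15 and H4C15 on chromosome 1 had 0 reads and no unique word. Other members without a unique word did have reads, 14 in H2AC15, 9 in H4C12 and 1 in H2AC18. The cause of the runs was not tested.

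By locus, the telomeric end of the chromosome 6 cluster (chr6:25726063-26285534) held 34 members, 18 of them with reads, and 64% of the members' reads. The second chromosome 6 locus (chr6:27132316-27893891) held 21 members, 17 with reads, and 33.5%. The chromosome 1 locus (chr1:149782689-149887965) had 11 members, 6 with reads, and 2.44%. The pair at chr1:228457364-228458558 had no read, and H4C16 on chromosome 12 had 6 reads.

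**Figure D1:**
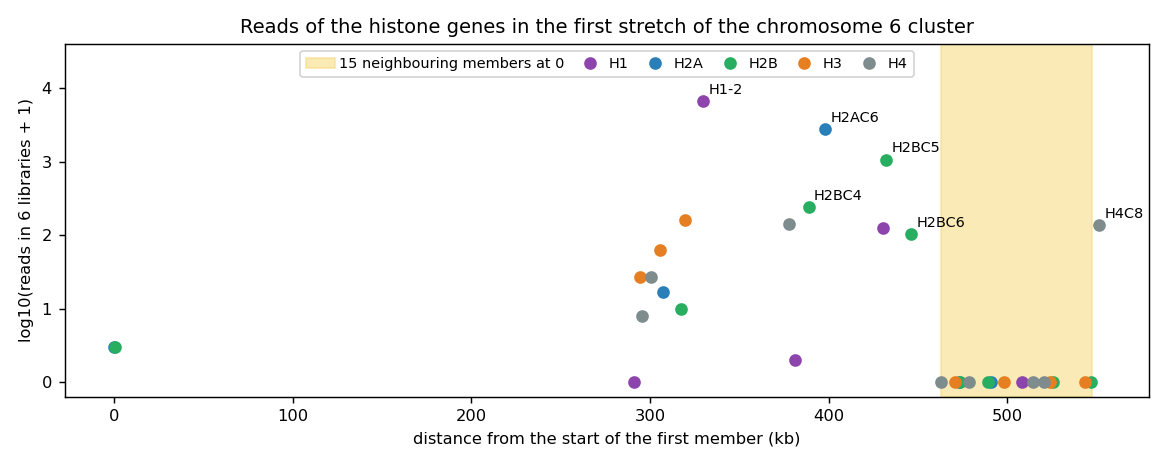
Reads summed over the 6 libraries, as log10 of reads + 1, for each of the 34 histone genes at the telomeric end of the chromosome 6 cluster, against the distance in kb from the start of the first member, coloured by class. The run of 15 genes at 0 (shaded) lies between H2BC6 and H4C8.

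Several head-to-head genes, whose starts lie less than 500 bp apart, were counted unequally. H2BC12 and H2AC12, whose starts are 330 bp apart, had 5183 and 15 reads in all. H2AC6 had 2781 reads and its partner H2BC4, 218 bp away, 240. H2BC11 had 303 reads and H2AC11 73, and H2BC21 had 241 and H2AC20 133. H2AC17 and H2BC17 were closer, with 88 and 75 reads. Of 11 such H2A-H2B pairs, 3 had no read in either gene. H2AC15 and H2BC15, with 14 and 109 reads, are not among the 11, because the release 29 bounds of H2BC15 run over H2AC15. Distances between RefSeq starts can differ from those given.

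The annotated 3′ ends differed between tested members and the rest only in part. The models of H2AC6, H2BC21 and H4C8 run on for 1128, 1729 and 1655 bases after the stem-loop, and those of H2BC5 and H2BC4 for 39 and 116 bases. H2BC4 and H2BC5 also have a model that ends in a poly(A) signal without a stem-loop, as do H2BC11 and H2BC15. The RefSeq genes of H2BC4, H2BC5 and H2BC12 span 10757, 13229 and 8566 bp. A poly(A) signal stood in the last 60 bases of some model for 10 of the 19 tested members, 3 of the 23 members with reads but not tested and 9 of the 27 at 0. Since many models stop at the stop codon, including those of H1-2 and H2BC12, a missing signal says little about the RNA.

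To compare KO with control cells, the reads of each class were first summed in each library and scaled to CPM. All classes together had 188, 200.7 and 189.2 CPM in KO libraries, against 118.7, 118 and 111.8 CPM in control libraries. The groups did not overlap, and the KO mean of 192.6 ± 7.03 CPM was 1.658 times the control mean of 116.2 ± 3.8 CPM (SD, n = 3 each), a log2 ratio of 0.73. Without H1-2 the log2 ratio was 0.62. No test is given for sums over members.

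Each class lay higher in every KO library than in every control library. The linker histone H1 sum was 75.3, 80.42 and 73.7 CPM in KO and 44.57, 40.03 and 36.81 CPM in control, a log2 ratio of 0.92, which is essentially the value of H1-2. H2A summed to 29.51, 31.93 and 40.9 CPM in KO and to 17.86, 18.05 and 24.1 CPM in control (0.77), with replicate 3 the highest in both groups. H2B summed to 76.21, 81.72 and 65.83 CPM in KO and to 51.32, 55.32 and 45.7 CPM in control (0.55), with replicate 3 the lowest in both groups.
The core histone classes H3 and H4, with between 40 and 86 reads in a library, were less precise. H3 summed to 3.535, 3.634 and 4.018 CPM in KO, against 2.599, 2.478 and 3.443 CPM in control, and its highest control library came close to the lowest KO library. H4 summed to 3.427, 3.011 and 4.734 CPM in KO and to 2.316, 2.155 and 1.743 CPM in control (0.85). Leaving out the best counted member of each class left log2 ratios of 0.51 for H1, 0.25 for H2A, 0.56 for H2B, 0.32 for H3 and 1.16 for H4. The groups then overlapped in H1, H2A and H3 and stayed apart in H2B and H4.

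**Figure D2:**
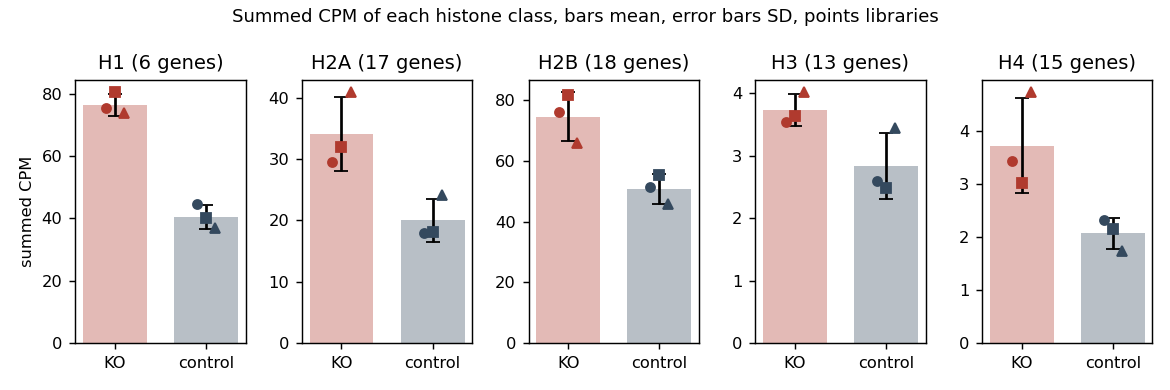
Summed CPM of each histone class in KO libraries, drawn left, and control libraries, with points for libraries (circle, square and triangle for replicates 1, 2 and 3), bars for means and error bars for the SD (n = 3 each). Each class has its own axis from 0. Every KO library lies above every control library in each class, with the narrowest gap in H3.

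Single members were tested with edgeR's quasi-likelihood test, with Benjamini-Hochberg adjustment over all 14704 genes that had enough counts and a threshold of 0.05 on the adjusted p. Enough counts meant at least 0.526 CPM in at least 3 libraries, which 19 members had and 50 did not. Of the 19, 14 were at that level in all 6 libraries. H3C2 and H2AC11 passed through the 3 KO libraries and H2BC17 and H2AC17 through the 3 control libraries, and none of these was called. In all, 6 members were called, against 9.7% of all genes in either direction. All 6 were higher in KO cells, or 31.6% of those tested, against 3.28% of all genes, and 0 were lower, against 6.42% of all genes. At an unadjusted p under 0.05 there were 9 higher, against 11.2% of all genes, and 0 lower, against 14.2%, and the 9 include H3C2. DESeq2 called 4 higher and 0 lower, against 4.03% and 6.57% of all genes. All 6 called members were among the 14 that passed in every library. As a description, the 19 tested members had a median log2 fold change of 0.50, against 0.00 for all genes tested, and 17 were positive. The 14 that passed in every library had a median of 0.55, and all 14 were positive.
Called members by class were 1 of 2 H1, 1 of 4 H2A, 3 of 8 H2B, 0 of 3 H3 and 1 of 2 H4 genes. The CPM of 10 of the 19 lay higher in every KO library than in any control library, against 14.9% of all genes, and that of 1 lay lower, against 16.8%. Among these, H3C2 had passed the filter through KO libraries and H2BC17 through control libraries. Over the 14 members that passed in every library, 9 lay higher and 0 lower.

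**Figure D3:**
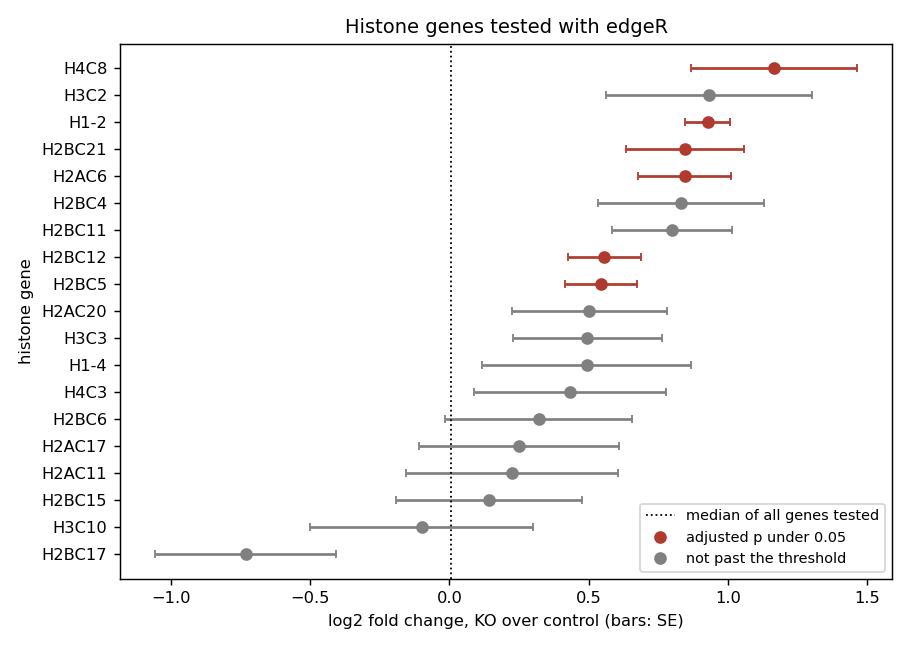
Log2 fold change of KO over control cells with its standard error for the 19 tested members, ordered by size, red where the adjusted p passed the threshold and grey where it did not. The dotted line is the median of all genes tested. The 6 called members lie between 0.54 and 1.16, and the values of H2BC17 and H3C10 lie below 0.

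H1-2, which binds the linker DNA between nucleosomes, was at 73.6, 79.3 and 72.8 CPM in KO libraries, against 43.3, 39.2 and 36.3 CPM in control libraries. The groups lay well apart and the libraries of each were close together. Its log2 fold change was 0.93 (SE 0.08), with an adjusted p of 3.08e-04 by edgeR's quasi-likelihood test, and it was called under all 12 alternative settings. All of its 50-base words were unique. The gene lies at chr6:26055740-26056470 on the minus strand.
H1-4, another somatic linker histone, was at 1.61, 1.14 and 0.881 CPM in KO and 1.23, 0.808 and 0.553 CPM in control, and the groups overlapped (0.49, SE 0.37, edgeR adjusted p = 0.463). H1-6, the testis linker histone, had 1 read, in KO replicate 1, and H1-1, H1-3 and H1-5 had none.

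H2AC6, the only H2A gene with more than 133 reads, was at 25.5, 28.9 and 36.7 CPM in KO libraries, against 15.1, 14.8 and 20.7 CPM in control libraries. The groups did not overlap, and replicate 3 was the highest in each. Its log2 fold change was 0.84 (SE 0.17, edgeR adjusted p = 0.0174). The call was lost without KO replicate 2, control replicate 1 or control replicate 2, where the adjusted p reached 0.0757. The gene lies at chr6:26124172-26124690 on the plus strand.
H2AC20, of the chromosome 1 locus, was at 1.66, 1.14 and 1.16 CPM in KO and 0.992, 0.808 and 0.978 CPM in control. Its groups did not overlap, but it missed the threshold (0.50, SE 0.28, edgeR adjusted p = 0.308). Of its words 69.5% were unique, and 30.5% were shared with H2AC18, another H2A gene of the same locus. H2AC17 and H2AC11 had log2 fold changes of 0.25 and 0.22, with overlapping groups. Only 13.7% of the words of H2AC17 were unique, since 86.3% occurred in the annotated transcript of H3C12, which overlaps it on the same strand.

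Among the H2B genes, H2BC12 was at 56.3, 57.8 and 42.9 CPM in KO libraries, against 37.5, 38.9 and 30.7 CPM in control libraries. The groups did not overlap and replicate 3 was the lowest in each. The log2 fold change was 0.56 (SE 0.13, edgeR adjusted p = 0.0313), and the call was lost in 5 of the 6 fits without a single library, with an adjusted p of up to 0.112. The value is uncertain in another respect, since 25.9% of its words were unique and 61.4% occurred in H2BC12L, a near-identical gene that itself had 0 reads. These words cover only a model of 381 bp that ends at the stop codon. The RefSeq gene spans 8566 bp, and the rest of it was not scored. H2BC12 lies at chr6:27138293-27146858 on the minus strand.
H2BC5 was at 10.4, 11.3 and 10.5 CPM in KO libraries, against 7.04, 8.62 and 6.50 CPM in control libraries, with no overlap. Its log2 fold change was 0.54 (SE 0.13, edgeR adjusted p = 0.0328), lost in 4 of the 6 fits without a single library (up to 0.126). It is 1 of the genes with a separate polyadenylated model, and it lies at chr6:26158121-26171349 on the plus strand.
H2BC21, the partner of H2AC20 on chromosome 1, was at 2.36, 2.44 and 3.14 CPM in KO and 1.42, 1.45 and 1.53 CPM in control. The groups did not overlap and the control libraries were nearly equal. The log2 fold change was 0.84 (SE 0.21, edgeR adjusted p = 0.0382). The call was lost in all 6 fits without a single library (up to 0.135) and with DESeq2 (0.0587). It lies at chr1:149884459-149886682 on the minus strand.

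H2BC11 and H2BC4 missed the threshold in the comparison of groups and passed it with the replicate number as a block, a fit that called 17.2% of all genes higher. Without the block, H2BC11 also passed with other size factors, without the filter on low counts and without replicate 3 of both groups. H2BC4 also passed without the filter. H2BC11 was at 2.62, 3.69 and 3.52 CPM in KO and 1.56, 2.05 and 2.04 CPM in control (0.80, SE 0.22), with an edgeR adjusted p of 0.0516 without the block and 0.00312 with it. H2BC4, the head-to-head partner of H2AC6, was at 1.61, 3.58 and 2.64 CPM in KO and 1.47, 1.40 and 1.53 CPM in control (0.83, SE 0.30), with an edgeR adjusted p of 0.120 without the block and 0.0116 with it. In both genes every KO library lay above every control library, in H2BC4 by little for KO replicate 1. With the block, 8 members were higher and 0 lower, and these included the 6 of the comparison of groups.
H2BC17 was the tested member that lay lower in every KO library, at 0.375, 0.519 and 0.495 CPM, against 0.756, 0.754 and 0.808 CPM in control. That is 7, 10 and 9 reads in KO and 16, 14 and 19 reads in control, and the test did not call it (−0.73, SE 0.32, edgeR adjusted p = 0.199). H2BC6 and H2BC15 had log2 fold changes of 0.32 and 0.14, with overlapping groups.

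The H3 and H4 genes had little to measure. H3C3 was at 1.77, 1.35 and 1.54 CPM in KO and 0.898, 1.02 and 1.36 CPM in control, which overlap narrowly (0.49, SE 0.27, edgeR adjusted p = 0.296). H3C2 was at 0.643, 0.571 and 0.881 CPM in KO and 0.331, 0.323 and 0.425 CPM in control (0.93, SE 0.37, edgeR adjusted p = 0.157), without overlap but with 6 to 16 reads in a library. H3C10 had a log2 fold change of −0.10, with mixed groups.
H4C8 had the largest log2 fold change among the tested members, at 1.23, 1.51 and 2.09 CPM in KO libraries, against 0.756, 0.754 and 0.638 CPM in control libraries. The groups did not overlap (1.16, SE 0.30, edgeR adjusted p = 0.0422), but the call was lost in all 6 fits without a single library (up to 0.124) and with DESeq2 (0.0562). It lies at chr6:26285126-26285534 on the minus strand, next to the run of genes at 0. H4C3 was at 1.66, 0.986 and 1.43 CPM in KO and 1.32, 1.08 and 0.638 CPM in control, which overlap (0.43, SE 0.34, edgeR adjusted p = 0.489). H4C2, the third H4 gene by reads, had 2, 5 and 13 reads in KO and 3, 3 and 0 reads in control and was not tested.

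**Figure D4:**
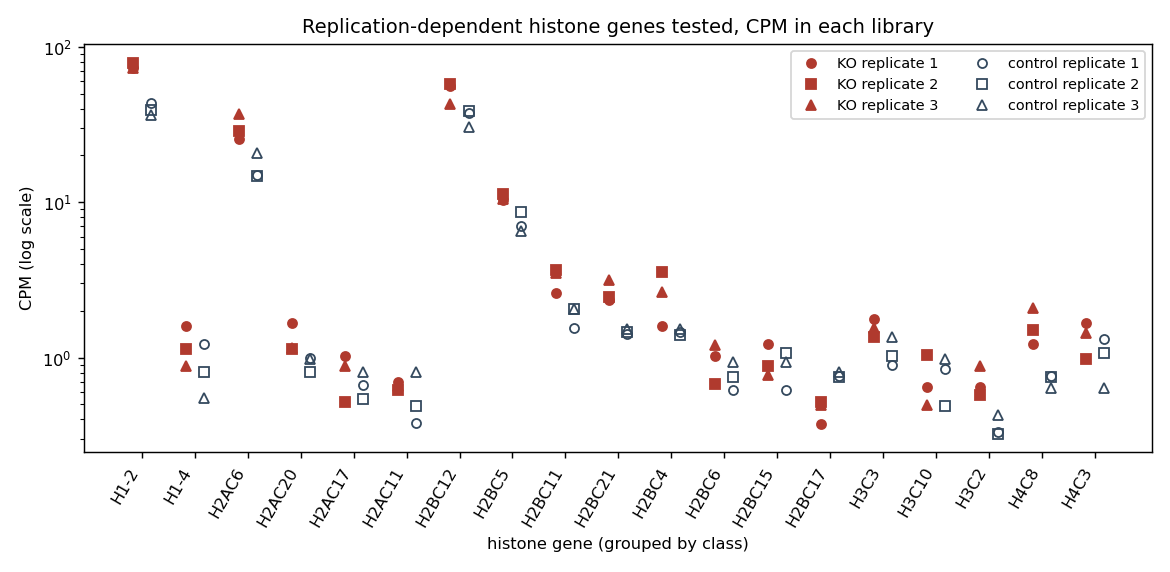
CPM on a log scale of the 19 tested members in each of the 3 KO and 3 control libraries, KO left of control within each gene. H1-2, H2BC12 and H2AC6 stand above the others by level, and in 10 genes the KO points lie wholly above the control points.

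The 50 members that were not tested held 322 reads in all, none more than the 41 of H2BC18. Together they had 1.981, 2.7 and 4.403 CPM in KO libraries, against 1.89, 2.693 and 2.678 CPM in control libraries, and the groups overlapped. In the fit without the filter on low counts, the lowest edgeR adjusted p among the 23 with reads was 0.218, in H4C2. The 19 tested members thus carry nearly all of the difference in the sum of all classes. They carry a smaller part of it in the low sums of H3 and H4.

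The replication-independent variants, most of which are also made outside S phase, are the closest genes to set beside the members. Of 12, 10 were tested, and 2 were higher and 0 lower, against 3.28% and 6.42% of all genes. Their median log2 fold change was 0.10. H2AX, the variant phosphorylated at DNA breaks, whose mRNA can end in either a stem-loop or a poly(A) tail, averaged 147 ± 4.31 CPM in KO and 115 ± 3.70 CPM in control (0.36, SE 0.06, edgeR adjusted p = 0.00564). MACROH2A1, which carries a macrodomain, averaged 306 ± 11.0 CPM in KO and 260 ± 1.65 CPM in control (0.24, SE 0.06, edgeR adjusted p = 0.0344). With the block, 6 variants were higher and 3 lower, in a fit that called 17.2% of all genes higher and 16.7% lower.

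A list of 17 genes covered the transcription of histone genes and the 3′ end formation and decay of their mRNAs. Of these, 0 were called in either direction by edgeR or DESeq2. Over all genes edgeR called 9.7% in either direction, and DESeq2 4.03% higher and 6.57% lower. The median log2 fold change of the 17 was 0.12. At an unadjusted p under 0.05 there were 8, of which only LSM11 was lower, against 11.2% of all genes higher and 14.2% lower. With the block 8 were higher and 1 lower, against 17.2% and 16.7% of all genes. SLBP averaged 123 ± 8.24 CPM in KO and 106 ± 8.90 CPM in control (0.22, SE 0.08), with an edgeR adjusted p of 0.123 without the block and 1.88e-05 with it. NPAT averaged 34.4 ± 3.20 CPM in KO and 30.7 ± 1.61 CPM in control (0.17, SE 0.09, edgeR adjusted p = 0.278, and 0.0517 with the block).
Of 21 histone chaperones, 2 were higher and 1 lower (median 0.09), against 3.28% and 6.42% of all genes. With the block 7 were higher and 1 lower, against 17.2% and 16.7% of all genes. HAT1, which acetylates new histone H4, averaged 97.7 ± 4.43 CPM in KO and 79.0 ± 3.26 CPM in control (0.31, SE 0.06, edgeR adjusted p = 0.0174). CHAF1A, a subunit of the chaperone CAF-1 that deposits histones behind the replication fork, averaged 135 ± 1.09 CPM in KO and 112 ± 3.50 CPM in control (0.27, SE 0.05, edgeR adjusted p = 0.0156). UBN1, a subunit of the HIRA complex that deposits H3.3 outside replication, averaged 78.8 ± 4.31 CPM in KO and 100.3 ± 2.27 CPM in control (−0.35, SE 0.06, edgeR adjusted p = 0.00945).

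Because these genes are used in S phase, a list of 34 S-phase genes was set beside them. It summed to 4813, 4838 and 4750 CPM in KO libraries, against 4214, 4209 and 3983 CPM in control libraries. Of the 34, 8 were higher and 0 lower, against 3.28% and 6.42% of all genes, with a median log2 fold change of 0.20. RRM2, a subunit of ribonucleotide reductase, averaged 399 ± 10.5 CPM in KO and 269 ± 6.83 CPM in control (0.57, SE 0.06, edgeR adjusted p = 6.12e-04). CCNE2, a cyclin E, averaged 47.1 ± 1.05 CPM in KO and 32.6 ± 1.53 CPM in control (0.53, SE 0.07, edgeR adjusted p = 0.00175), and CLSPN, the replication checkpoint adaptor claspin, 193 ± 9.74 CPM in KO and 141 ± 1.58 CPM in control (0.46, SE 0.06, edgeR adjusted p = 0.00223). The number called higher ranged from 3 to 12 without a single library, in fits that called 140 to 764 of all 14704 genes higher. With the block 28 of the 34 were higher, against 17.2% of all genes.
Of 17 tested genes of G2 and mitosis, 1 was higher and 0 lower (median 0.20), against 3.28% and 6.42% of all genes. With the block 15 were higher, against 17.2% of all genes. PLK1, a mitotic kinase, averaged 182 ± 1.99 CPM in KO and 153 ± 8.37 CPM in control (0.25, SE 0.06, edgeR adjusted p = 0.0371). In bulk RNA, more cells in S phase and more RNA per cell cannot be told apart, and the part of the cell cycle in the histone difference was not tested.

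RNAs that lack a poly(A) tail but are no histone mRNAs were listed to look at the entry of such RNA into each library. The 21 genes listed, among them RN7SL1, the RNA of the signal recognition particle, summed to 59.3, 50.4 and 8.15 CPM in KO libraries, against 106, 98.2 and 9.14 CPM in control libraries. RN7SL1 alone held 90.7% of their reads, so the sum mostly follows that RNA. The sum was low in replicate 3 of both groups, and in replicates 1 and 2 it lay lower in KO than in control, where the histone sums lay higher in KO. SNORA73B, a small nucleolar RNA and the next by reads, did not share the low replicate 3, with 2.46, 1.71 and 2.75 CPM in KO and 2.74, 2.75 and 3.66 CPM in control. Their part in the histone difference was not tested. Of the 21, 3 were tested, and 10 were at 0 in all libraries. Without the block, 0 of the 3 were called by edgeR or DESeq2 or had an unadjusted p under 0.05 (median −0.62). With the block 0 were higher and 1 was lower, in a fit that called 16.7% of all genes lower. That gene was RN7SL1 (−0.85, SE 0.11 with the block), with an edgeR adjusted p of 0.749 without the block and 4.40e-04 with it. Among the histone sums, H1 and H2B were lowest in replicate 3 of both groups, and H2A and H3 were highest there. H4 was highest in KO replicate 3 and lowest in control replicate 3. With replicate 3 of both groups left out, 6 members were called higher, 5 of them the same as in the main fit. That fit called 11.8% of all genes higher and 13.7% lower.

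**Figure D5:**
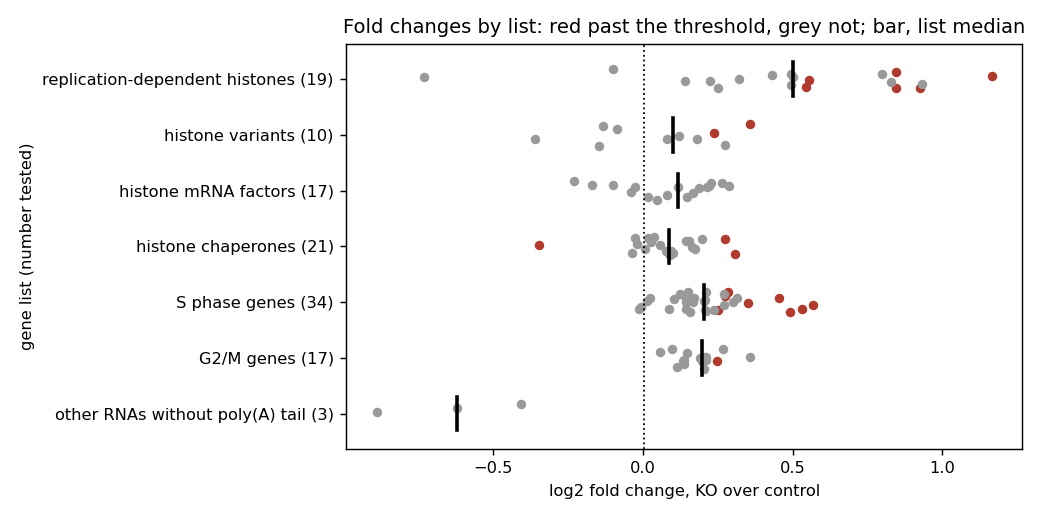
Log2 fold change of KO over control for every tested gene of the histone set and of the related lists (points, red past the threshold and grey not, with a bar at the median of each list). The dotted line marks the median of all genes tested. The medians are 0.50 for the replication-dependent histones, 0.20 for the S-phase list, 0.20 for the G2/M list and 0.10 for the histone variants.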

How the data were processed

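Polyadenylated RNA of 6 libraries was counted per gene. The authors deposited raw counts, which are whole numbers, and the totals differ between libraries. FastQC 0.11.9, R 4.1.1, featureCounts and STAR 2.7.9a with build hg38 are named in the submitters' processing notes. The kit is stranded and selects poly(A) RNA, per the labels' protocols. The strand setting, the annotation and the handling of multi-mapping reads were not given in sources used here, so near-identical and overlapping histone genes are uncertain.

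Columns were assigned to samples by the library names, groups by the titles. The members and gene lists were chosen with earlier results of these data known, and so were the tests. Every member with at least 1 CPM in either group or past the filter on low counts was named, with the 3 best counted of each class, and up to 3 called genes per direction of each list plus NPAT, SLBP and the targeted genes. A gene that the rule also names is not reported here. Counts were filtered with filterByExpr (14704 genes), scaled with TMM and tested with edgeR 4.0.16 (glmQLFit, robust, group alone, R 4.3.3), and alternatively with DESeq2 1.42.0. The procedure was tested on simulated counts. CPM was computed here on a linear scale from the counts, with the total over tested genes times its TMM factor as library size. Fold changes are log2, KO over control.

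Both groups carry replicate numbers 1, 2 and 3, and deviations from the group means correlated between same-numbered libraries at 0.546, 0.450 and 0.828 over 10032 genes. KO replicate 2 with control replicate 1 (0.592) and KO replicate 1 with control replicate 2 (0.584) correlated as well or better, so the shared structure separates replicate 3 from 1 and 2. Unless the block is named, calls come from the fit without pairs. Where the replicate number as a block moved a printed edgeR adjusted p across the threshold, the value with the block stands beside it. The design itself gives no pairing. The alternatives were other size factors, DESeq2, no filter, leaving out libraries, the replicate block and a test against a 1.2-fold change. Transcripts were read from GENCODE release 29 and promoters from RefSeq.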

Additional observations from a re-analysis of the deposited data

How the results depend on the processing

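The summed log2 ratio of all members, 0.73, ranged from 0.70 to 0.75 without a single library and was 0.62 without H1-2. The number of members called higher, 6, ranged from 1 to 4 without a single library. It was 1, H1-2, when tested against a 1.2-fold change, 7 with other size factors and 8 without the filter. Of the members, 0 were lower in every setting run. Among all 14704 genes, 483 were called higher, and 140 to 764 without a single library. That number was 83 against a 1.2-fold change and 526 with other size factors. It was 719 without the filter, where 28762 genes were tested. Over all genes, 1427 were called, with a range of 581 to 1733 without a single library, 446 against a 1.2-fold change, 3751 without replicate 3 of both groups and 4983 with the replicate block, of which 2522 were higher and 2461 lower. The related lists had 14 called genes, 4 to 28 without a single library, 23 with DESeq2, 3 against a 1.2-fold change, 56 without replicate 3 of both groups and 70 with the block. Beside H2BC11, H2BC4 and the list counts given above, the block changed the call of no member. The cause of these shifts was not tested. The H3 and H4 genes and the 50 members that were not tested rest on few reads.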
